A study of Mus musculus with 30 samples.

Results

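The comparison described here was set up to separate transcripts that change on loss of PDS5A and PDS5B from those that change with auxin. It was drawn from 12 of the 30 RNA-seq libraries of a series on cohesin cofactors in E14 mouse embryonic stem cells, a male line of 129P2/Ola background. The 12 were chosen by their labels and form 4 groups of 3: the PDS5AB line untreated, the PDS5AB line after auxin, the TIR1 line untreated and the TIR1 line after auxin. PDS5AB cells express PDS5A-AID, PDS5B-AID and Tir1, and TIR1 cells express Tir1 with no AID fusion. Auxin was indole-3-acetic acid at 500 µM for 24 h. All cells were grown in serum with LIF, the MEK inhibitor PD0325901 and the GSK3 inhibitor CHIR-99021. Each line bears a single clone name, so a property of the clone and of the degron cannot be told apart. The labels do not say whether the 3 libraries of a group came from separate cultures, and p-values then measure the spread between libraries, which may be technical. The other 18 libraries came from a WAPL-AID line, and from a PDS5AB line and a WAPL line that carry FKBP-NIPBL and RAD21-HaloTag in addition and received auxin with dTAG-13 at 500 nM.

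Cohesin is a ring complex that holds sister chromatids together and extrudes chromatin loops in interphase. NIPBL drives extrusion, WAPL releases the ring from DNA, and the paralogues PDS5A and PDS5B bind the ring, take part in its release by WAPL, and limit how far loops grow, also at CTCF sites. An auxin-inducible degron (AID) lets the plant F-box protein Tir1 send a fused protein to the proteasome when auxin is present. Indoles can also be ligands of the aryl hydrocarbon receptor (AHR), a transcription factor that pairs with ARNT and induces genes such as Cyp1a1. An auxin effect measured in a degron line therefore holds the response to the compound and the response to protein loss. The TIR1 line has no AID fusion and serves as control for the first, within the limit on library numbers given below. Its response to the compound need not equal that of the PDS5AB line.

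For each of 19868 tested genes the log2 change with auxin in TIR1 cells was subtracted from that in PDS5AB cells, and the result is called the difference. Genes were called by edgeR's quasi-likelihood F-test where the adjusted p was under 0.05. Levels are CPM, reads of a gene relative to all reads of its library after TMM scaling. A limit applies to every difference. The labels number the libraries, and the untreated TIR1 libraries and all PDS5AB libraries fall between 1 and 21, while the auxin-treated TIR1 libraries carry 43 to 45. What else changed between those numbers cannot be told apart from the auxin effect in TIR1 cells, and it enters the difference, whereas the PDS5AB effect lies within 1 to 21. Bulk RNA also cannot tell fewer cells of a type from less RNA per cell.

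The 12 libraries held 23764021 to 45539021 counted fragments, and Pearson's r of log2 CPM between replicates was at least 0.988. Treated PDS5AB libraries had reads on 28859 to 29350 genes, against 27675 to 28293 in untreated PDS5AB, 26055 to 26713 in untreated TIR1 and 27064 to 28239 in treated TIR1 libraries. Their TMM factors were also the highest, up to 1.13. Transcripts of replication-dependent histones, most of which lack a poly(A) tail, made up 0.0130% to 0.0141% of counts in treated PDS5AB libraries, 0.00723% to 0.00742% in untreated PDS5AB, 0.00444% to 0.00655% in untreated TIR1 and 0.00399% to 0.00442% in treated TIR1 libraries. Of 35 such histone genes tested, 15 had a positive difference and 0 a negative one, against 13.9% and 12.4% of all tested genes, 4 of the 15 had no called PDS5AB effect, and 9 were positive without untreated TIR1 replicate 1. Treated PDS5AB libraries thus held the largest share of histone RNA and the most detected genes, and the part of both in the counts that follow was not tested.

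Transcripts of the degron-tagged genes were read first. Degrons act on protein, so these levels do not report depletion. Pds5a (ENSMUSG00000029202, GRCm38 chromosome 5, 65605721 to 65698273, minus strand) was measured at 73.7, 87.3 and 89.1 CPM in untreated and 57.4, 61.7 and 62.1 CPM in treated PDS5AB libraries, against 209.7, 222 and 239 CPM in untreated and 245, 244 and 246 CPM in treated TIR1 libraries. The PDS5AB line was lower at both times, and its treated and untreated libraries did not overlap. The log2 difference of Pds5a was -0.60 (SE 0.14, adjusted p = 0.00207). Counting ignored strand, and 2 other genes overlap it in antisense. Pds5b (ENSMUSG00000034021, GRCm38 chromosome 5, 150673739 to 150810690, plus strand) read 109, 112 and 119 CPM untreated and 104, 109 and 113 CPM treated in the PDS5AB line, 99.7, 112 and 119 and 122, 121 and 120.1 CPM in the TIR1 line, and its log2 difference of -0.20 (SE 0.11, adjusted p = 0.184) was not called. With a replicate block within each line it was called (adjusted p 0.0173). Of 19 tested genes for cohesin and its cofactors, 8 had a negative and 1 a positive difference (12.4% and 13.9% of all tested genes). The ring subunits Smc3 and Rad21 had log2 differences of -0.60 and -0.50, the STAG subunit Stag2 -0.44, the loop-anchor protein Ctcf -0.35 and the centromere protector Sgo1 -0.67. The cohesin acetyltransferase gene Esco2 stood at -0.62, with effects of -0.33 in PDS5AB and 0.29 in TIR1 cells. Wapl (-0.51) was called in the difference without a called PDS5AB effect of its own (-0.18). The block within lines also called the negative differences of Nipbl (adjusted p 0.000229), Smc1a (0.000179) and Cdca5 (0.0156), and the block over all lines those of Nipbl (0.0287) and Smc1a (0.0205). The single positive member was Rec8, the meiotic cohesin subunit, at 0.68.

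Auxin changed 9134 genes in PDS5AB cells (46% of those tested) and 3962 in TIR1 cells (19.9%). The effects differed at 5224 genes (26.3%), of which 2762 (13.9% of tested genes) were more positive in PDS5AB cells and 2462 (12.4%) more negative. At an unadjusted p under 0.05, 7323 genes differed. In 4240 genes (21.3%) the PDS5AB effect was itself called with the sign of the difference, and these are called genes beyond auxin: 2317 were higher (11.7%) and 1923 lower (9.68%). In 3451 of them TIR1 cells had no called change, in 378 TIR1 cells moved the same way by less, and in 411 they moved the opposite way. Another 1504 genes (7.57%) changed with the same sign in both lines without a called difference and are called shared with auxin, and 3335 were called in PDS5AB cells alone with no called difference. For 929 genes (4.68%) the difference was called but the PDS5AB effect was not, and the TIR1 effect was called for 673 of them. In the remaining 55 called differences the PDS5AB change had the sign of the TIR1 change and was smaller. The definitions fix these signs, so only the sizes of the classes are results.

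**Figure D1:**
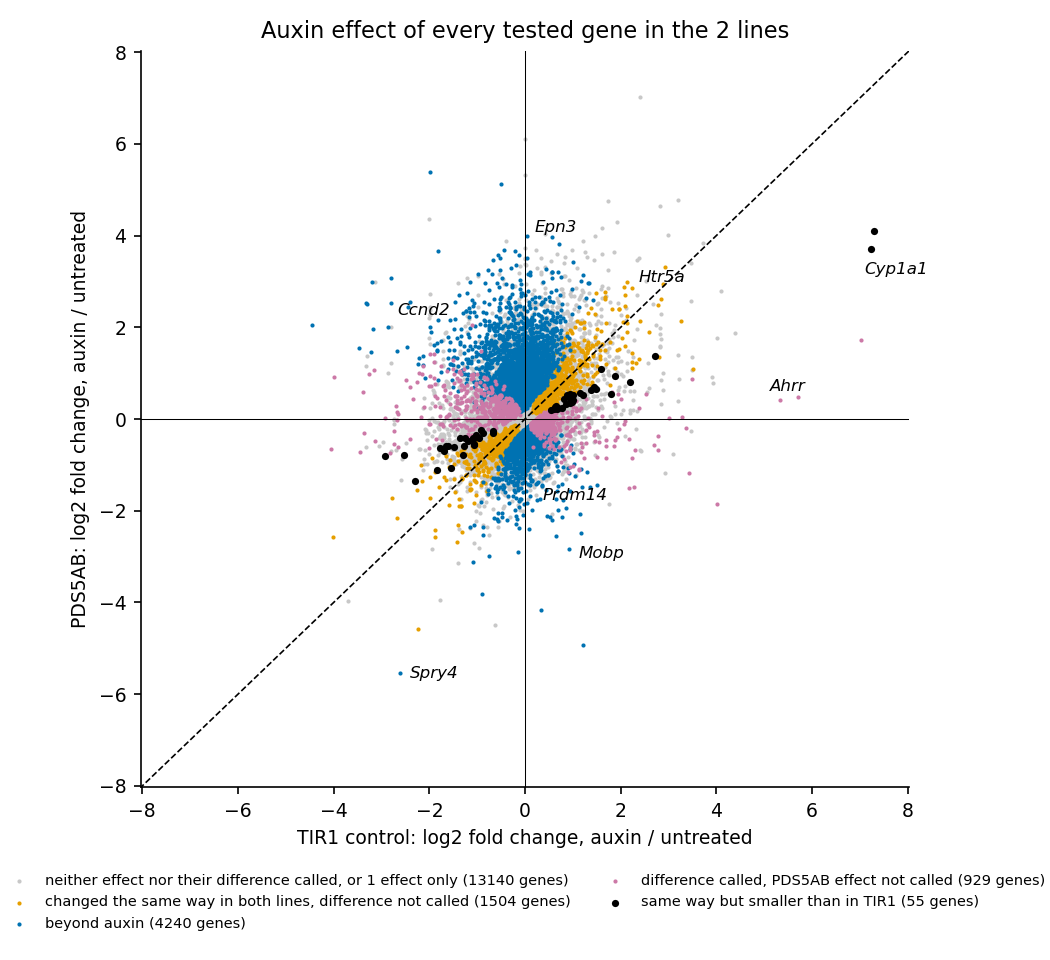
Log2 auxin effect in PDS5AB cells (y axis) against that in TIR1 cells (x axis), 1 point per tested gene, coloured by class. Genes beyond auxin, 2317 higher and 1923 lower, lie away from the diagonal along the y axis, and the 1504 genes shared with auxin lie near the diagonal.

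Genes that rose beyond auxin had a median untreated TIR1 level of 4.47 CPM, against 7.41 CPM over all tested genes and 2.89 CPM over all with a positive PDS5AB effect. Their median log2 difference was 1.04, and 1220 of the 2317 differed by at least 2-fold. Genes that fell were at a median of 79.0 CPM, against 21.6 CPM over all with a negative PDS5AB effect, with a median log2 difference of -0.48 and 205 of 1923 past 2-fold. Over all tested genes, 1428 called differences of at least 2-fold were positive (7.19%) and 295 negative (1.48%). The part of expression level in these sizes was not tested. The median span of the genes beyond auxin was 23.2 kb, against 16 kb over all tested genes. It was 20.7 kb for genes shared with auxin and 18.12 kb for those called in PDS5AB cells alone without a called difference. The 929 genes with a called difference but no called PDS5AB effect stood at 22.7 kb. Genes called in TIR1 cells alone without a called difference were at 13.21 kb, and genes with no call at 10.98 kb. A longer span was thus not particular to the genes beyond auxin.

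Genes named for large positive differences without a called TIR1 change had a mean of at least 50 counts and no overlap between the PDS5AB groups. Epn3 (ENSMUSG00000010080, GRCm38 chromosome 11, 94489599 to 94499974, minus strand), which encodes the endocytic adaptor epsin 3, had 0.674, 0.562 and 0.497 CPM before and 12.1, 6.66 and 8.79 CPM after auxin in PDS5AB cells. In TIR1 cells Epn3 stayed between 0.390 and 1.36 CPM, and the log2 difference was 3.95 (SE 0.56, adjusted p = 4.95e-06), or 3.04 without untreated TIR1 replicate 1. Chst15, a sulfotransferase of chondroitin sulfate chains, went from 4.38, 3.31 and 3.92 to 36, 37 and 34.4 CPM in PDS5AB cells, with 2.61, 2.38 and 1.56 and 2.77, 2.22 and 2.01 CPM in TIR1 cells (log2 difference 3.11, SE 0.25, adjusted p = 5.20e-10). Chst15 overlaps Gm10584 on the other strand. Sbsn, which encodes the epidermal protein suprabasin, rose from 3.10, 2.12 and 2.01 to 19.8, 17.5 and 17.6 CPM, and Loxl4, a lysyl oxidase that crosslinks collagen, from 2.80, 2.08 and 2.18 to 18.5, 16.3 and 15.4 CPM. The log2 differences were 3.20 for Sbsn and 2.93 for Loxl4. Chit1, a chitinase, Slc4a9, of the bicarbonate transporter family, and Tmem72 had log2 differences of 3.46, 3.34 and 3.03.

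Among genes that fell in PDS5AB cells with no called TIR1 change were regulators of growth and of secreted signals. Ccnd1 (ENSMUSG00000070348, GRCm38 chromosome 7, 144929931 to 144939925, minus strand), which encodes cyclin D1, went from 75.4, 60.9 and 61.1 CPM in untreated to 24.1, 17.9 and 16 CPM in treated PDS5AB libraries, and read 135, 138 and 129 CPM untreated and 152, 159 and 167 CPM treated in TIR1 cells. The log2 difference of Ccnd1 was -2.02 (SE 0.17, adjusted p = 9.85e-10), and the untreated PDS5AB libraries were already below every TIR1 library. Socs2, a suppressor of cytokine signalling, fell from 23.9, 23 and 24 to 6.45, 6.63 and 6.63 CPM in PDS5AB cells. Its TIR1 levels were 36.7, 42.9 and 43.1 CPM untreated and 36.8, 42.3 and 42.1 CPM treated, and the log2 difference was -1.83 (SE 0.15, adjusted p = 5.20e-10). Notum, a secreted enzyme that inactivates Wnt ligands, stood at 17.6, 18.3 and 16.9 and then 4.77, 6.79 and 4.87 CPM, a log2 difference of -1.78 (SE 0.16, adjusted p = 2.52e-09). The antisense transcript Notumos had a log2 difference of -2.12, and unstranded counting cannot separate it from Notum. Fst, the activin antagonist follistatin, fell from 15.4, 11.8 and 15.3 to 5.71, 4.51 and 4.31 CPM, against 7.35, 6.25 and 7.76 and 7.87, 10.5 and 10.4 CPM in TIR1 cells (-1.98, SE 0.23, adjusted p = 1.73e-07). For all these genes the treated and untreated PDS5AB libraries did not overlap, which the rule for naming genes of this class required, and 52.8% of tested genes shared that property. Kcnj3, an inwardly rectifying potassium channel, had a log2 difference of -2.05, Tmem132d -1.88 and Skida1 -1.79.

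In 378 genes auxin moved TIR1 cells the same way but by less. Spry4, a feedback inhibitor of receptor tyrosine kinase signalling, fell from 27.6, 7.50 and 10.2 CPM to 0.709, 0.0980 and 0.196 CPM in PDS5AB cells and from 10.3, 7.79 and 9.08 to 1.43, 1.49 and 1.51 CPM in TIR1 cells. The untreated PDS5AB libraries spread widely, and the log2 difference was -2.92 (SE 0.65, adjusted p = 0.00125). It was -4.06 without treated PDS5AB replicate 1 and -2.16 without untreated PDS5AB replicate 1. Slc7a3, a cationic amino acid transporter, fell from 87, 102 and 101 to 10.1, 11.9 and 11.5 CPM in PDS5AB and from 84.1, 109 and 106 to 38.8, 52.4 and 48.3 CPM in TIR1 cells. The untreated levels of Slc7a3 in the 2 lines overlapped, and the difference was -2.02 (SE 0.18, adjusted p = 2.52e-09). Gli2, a transcription factor of Hedgehog signalling, fell from 71.3, 58.3 and 64.2 to 16.4, 15.6 and 16.6 CPM, against 138, 126 and 124 and 107, 110.4 and 118 CPM (-1.78, SE 0.10, adjusted p = 1.15e-12). Tinagl1, a secreted matrix protein, rose from 9.64, 8.30 and 8.53 to 84.4, 70.1 and 70.4 CPM in PDS5AB cells and from 18.5, 15.8 and 12 to 32.6, 23.3 and 21.8 CPM in TIR1 cells (2.34, SE 0.21, adjusted p = 2.62e-09). Nags, which makes the activator of the urea cycle, and Krtdap, a keratinocyte differentiation protein, had log2 differences of 1.91 and 1.84.

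In 411 genes the lines moved in opposite directions. Ccnd2, which encodes cyclin D2, rose from 4.08, 3.17 and 2.87 to 16.5, 14.8 and 14.1 CPM in PDS5AB cells and fell from 0.845, 1.81 and 0.851 to 0.334, 0.384 and 0.502 CPM in TIR1 cells, a log2 difference of 3.64 (SE 0.43, adjusted p = 2.76e-07). Cyclin D1 and cyclin D2 transcripts thus moved in opposite directions within the PDS5AB line. Mobp, a myelin protein gene, fell from 5.26, 8.83 and 8.53 to 0.746, 1.05 and 1.34 CPM in PDS5AB cells and rose from 7.09, 11.2 and 9.79 to 18.8, 17.2 and 16.9 CPM in TIR1 cells (-3.75, SE 0.29, adjusted p = 3.28e-10). Scn3a, a voltage-gated sodium channel, fell from 2.39, 3.47 and 4.08 to 0.821, 0.621 and 1.14 CPM and rose from 7.61, 8.06 and 9.25 to 15.7, 13.7 and 15.5 CPM (-2.80, SE 0.30, adjusted p = 4.87e-08). Dlk1, an imprinted Notch-like ligand, read 2.19, 1.39 and 0.993 and then 6.49, 3.50 and 3.04 CPM in PDS5AB cells, and 1.25, 1.06 and 0.638 and then 0.334, 0.407 and 0.291 CPM in TIR1 cells (3.0, SE 0.53, adjusted p = 9.92e-05). Levels of Dlk1 were low throughout. Atp1a4, a sodium pump subunit best known from sperm, had a log2 difference of 2.98, and the small neuronal RNA Bc1 one of -2.94. Bc1 was higher in every library numbered 25 to 45 than in every library numbered 1 to 21.

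The labelled cell type was checked against its defining genes. Pou5f1 was between 552 and 912 CPM, Nanog between 627 and 1284 CPM and Sox2 between 123 and 486 CPM in all 12 libraries. The fibroblast genes Dcn, Lum, Postn and Col3a1 were too low to be tested. Another 6 of that list, Col1a1, Col1a2, Thy1, Acta2, Fbn1 and Pdgfrb, were high enough. Of these, 3 rose and 0 fell in PDS5AB cells, and 1 rose and 2 fell in TIR1 cells. Of 14 genes of naive pluripotency, the state held by LIF with both inhibitors, 14 had a negative difference and 0 a positive one (12.4% and 13.9% of all tested genes). Their median log2 difference was -0.76, against 0.04 over all genes. In PDS5AB cells 13 of the 14 fell and 0 rose (20.2% and 25.8% of all tested genes), and in TIR1 cells 4 fell and 4 rose (9.59% and 10.4%). Of 12 core pluripotency genes, 8 had a negative and 0 a positive difference (median -0.49), 12 fell in PDS5AB cells and 6 fell in TIR1 cells. These lists were drawn up with earlier results of these libraries known, so their direction is no independent evidence.

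**Figure D2:**
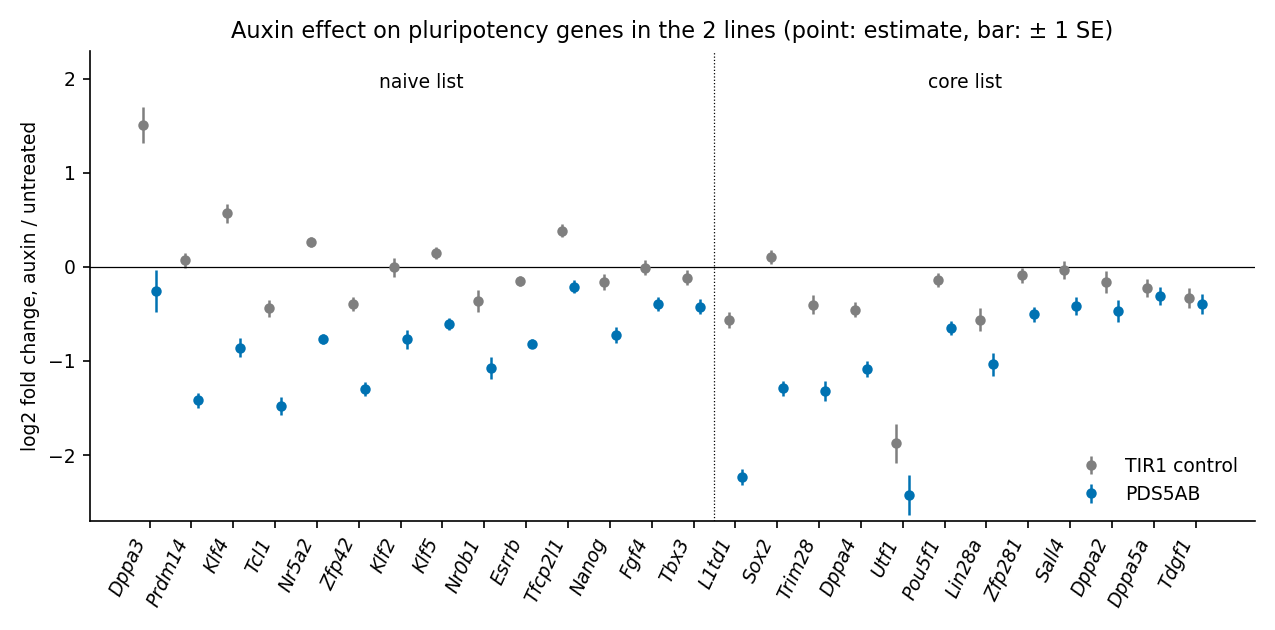
Log2 fold change with auxin (y axis) of the naive and core pluripotency genes (x axis), as the edgeR estimate in PDS5AB cells (blue) and TIR1 cells (grey) from 3 treated and 3 untreated libraries each, with bars of 1 SE either way. The PDS5AB point lies below the TIR1 point at all 14 naive genes and at the 8 core genes with a called difference, and for Dppa3 the TIR1 point alone lies far from 0.

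Prdm14 (ENSMUSG00000042414, GRCm38 chromosome 1, 13113457 to 13127163, minus strand), a repressor that guards the naive state, stood at 35.7, 41.1 and 39.8 CPM in untreated and 12.2, 15.3 and 16.1 CPM in treated PDS5AB libraries. In TIR1 cells Prdm14 read 50.4, 54.1 and 50.5 CPM untreated and 52.7, 54.9 and 55.1 CPM treated, and the groups overlapped. The log2 difference was -1.49 (SE 0.11, adjusted p = 2.36e-10). Sox2 (ENSMUSG00000074637, GRCm38 chromosome 3, 34650405 to 34652461, plus strand), a core factor that binds DNA with OCT4, fell from 326, 323 and 363 CPM to 123, 138 and 153 CPM in PDS5AB cells. In TIR1 cells Sox2 was at 441, 427 and 456 CPM and then at 458, 482 and 486 CPM, with a TIR1 effect of 0.11 (SE 0.08, adjusted p = 0.361) that was not called. The difference for Sox2 was -1.40 (SE 0.11, adjusted p = 3.74e-10). Klf4, a factor of the naive network, fell in PDS5AB cells from 218, 173 and 200.1 to 119, 99.5 and 107 CPM and rose in TIR1 cells from 310.2, 263 and 263 to 388, 404 and 452 CPM (-1.43, SE 0.14, adjusted p = 2.52e-08). L1td1, an RNA-binding protein of pluripotent cells, fell in both lines, from 621, 599 and 593 to 115, 137 and 133 CPM in PDS5AB and from 615, 738 and 701 to 459.6, 476 and 453 CPM in TIR1 cells (-1.67, SE 0.12, adjusted p = 5.77e-11).

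Nanog, another factor of the network, went from 1042, 1284 and 1262 to 627, 757 and 784 CPM in PDS5AB cells, and its TIR1 levels were 957, 1051 and 1043 CPM and 916, 908 and 902 CPM. Its log2 difference was -0.56 (SE 0.12, adjusted p = 6.56e-04). Pou5f1, which encodes OCT4, went from 899, 912 and 878 to 552, 587 and 573 CPM in PDS5AB cells, a log2 difference of -0.51 (SE 0.11, adjusted p = 5.66e-04). Other naive genes had log2 differences of -1.04 (Tcl1), -1.03 (Nr5a2), -0.90 (Zfp42, also called Rex1), -0.76 (Klf2), -0.75 (Klf5), -0.72 (Nr0b1), -0.67 (Esrrb), -0.60 (Tfcp2l1), -0.38 (Fgf4) and -0.31 (Tbx3). Among core genes the corepressor Trim28 stood at -0.92, Dppa4 at -0.63, the let-7 regulator Lin28a at -0.47, Zfp281 at -0.41 and Sall4 at -0.38. Utf1, Dppa2, Dppa5a and Tdgf1 had differences of -0.55, -0.31, -0.09 and -0.06 that were not called. Dppa3 differed through the TIR1 line: it read 3.27, 4.17 and 3.53 CPM and 3.02, 2.91 and 3.23 CPM in PDS5AB cells, a log2 change of -0.26 that was not called, and 5.00, 7.40 and 8.86 CPM and 16.2, 22.7 and 21.6 CPM in TIR1 cells.

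**Figure D3:**
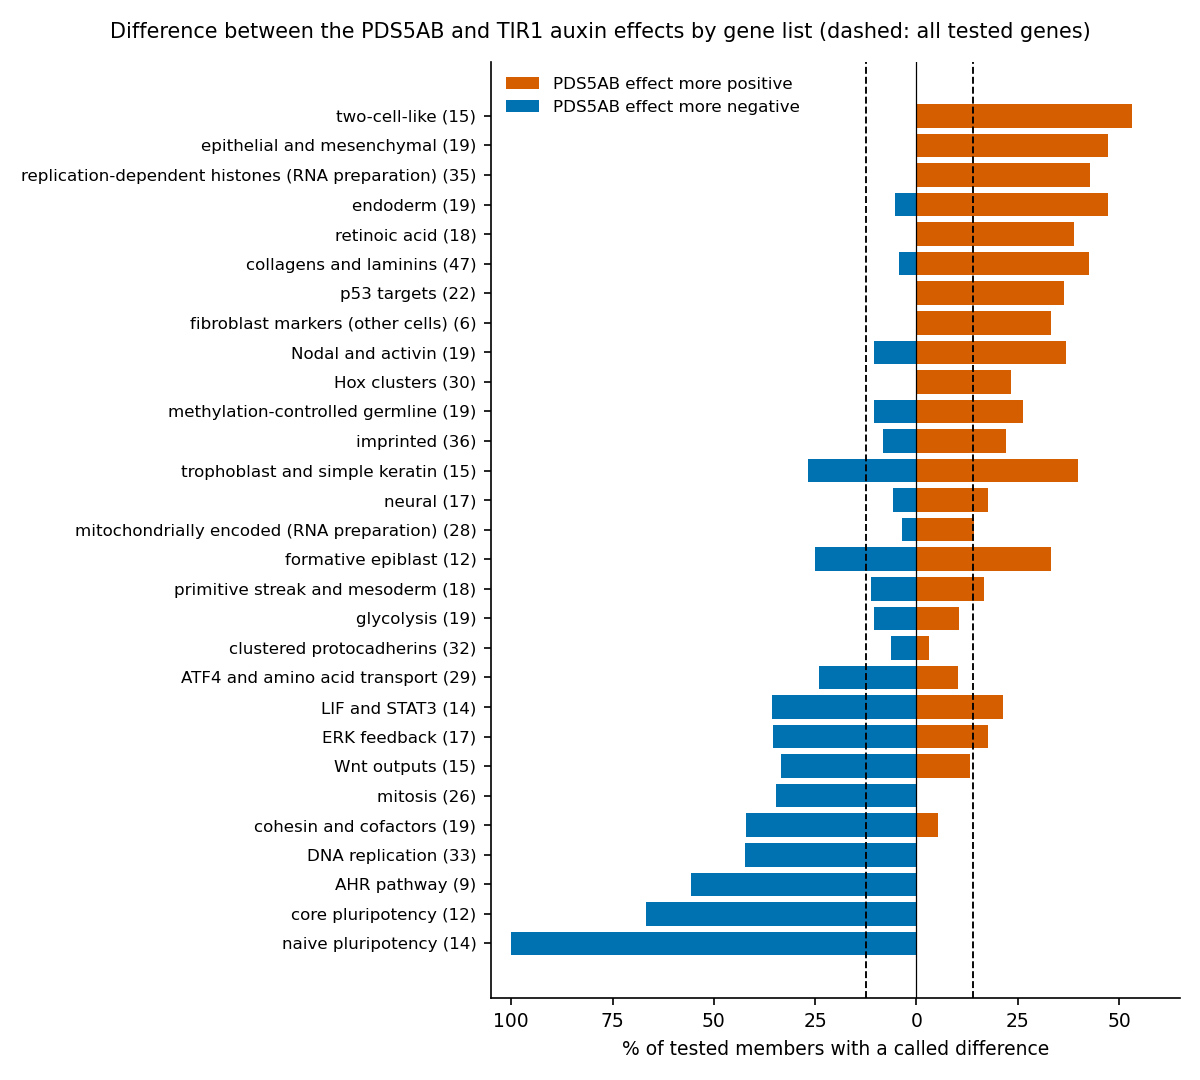
Percent of the tested members of each gene list (number in brackets) with a called difference, positive to the right in orange and negative to the left in blue. Dashed lines mark all 19868 tested genes at 13.9% and 12.4%. Pluripotency, DNA replication and mitosis lists lie on the negative side, and two-cell-like, endoderm, collagen and laminin, and histone lists on the positive side.

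Markers of other cell types were read for the whole lists, beside the 13.9% positive and 12.4% negative differences of all tested genes. Of 19 tested endoderm genes, 9 had a positive and 1 a negative difference. Foxa1, a pioneer factor of definitive endoderm, went from 0.742, 0.463 and 0.662 to 5.93, 4.05 and 3.82 CPM in PDS5AB cells and stayed between 0.147 and 0.352 CPM in TIR1 cells (log2 difference 3.15, SE 0.57, adjusted p = 1.28e-04). Col4a1 and Col4a2, basement membrane collagens made in quantity by primitive endoderm, had differences of 2.53 and 2.12, the lipoprotein gene Apob 2.49 and the endocytic adaptor Dab2 1.88. Lama1, the laminin chain of that basement membrane, had the negative one, -0.78. Col4a1 and Apob fell with auxin in TIR1 cells. At Apob the libraries numbered 1 to 21 and 25 to 45 also did not overlap, as at 0.906% of tested genes. Sox17, the other textbook endoderm factor, was at 1.38, 1.09 and 1.30 CPM and 2.16, 1.24 and 1.67 CPM in PDS5AB cells, and its difference of 0.84 was not called. Of 15 trophoblast and simple keratin genes, 6 were positive and 4 negative. Krt19 went from 16.7, 19.5 and 25.5 to 104, 132 and 145 CPM in PDS5AB cells and from 19, 10.5 and 17.9 to 22.4, 18 and 12.6 CPM in TIR1 cells (2.47, SE 0.44, adjusted p = 8.97e-05). Krt18, Krt8 and Krt7, keratins of simple epithelia, had differences of 1.95, 1.72 and 1.38, and the surface protein Plet1 one of 2.04. The trophoblast factors Cdx2 (-3.15), Tfap2c (-1.19) and Tead4 (-0.58) were among the negative ones. The value of Cdx2 arose through the TIR1 line, and its PDS5AB effect was not called.

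Of 18 primitive streak and mesoderm genes, 3 were positive and 2 negative, shares near the 13.9% and 12.4% of all tested genes. The positive count was 6 without treated TIR1 replicate 1 and 5 without untreated PDS5AB replicate 1 or untreated TIR1 replicate 3. The called genes included Twist1, a mesenchymal factor, at 1.52, the endothelial receptor Kdr at -1.49 and T (brachyury) at a log2 difference of -1.58, with a called effect in the TIR1 line alone. Of 17 neural genes, 3 were positive, also near the share of all tested genes, among them Neurod1 (1.55) and Nes (0.69), and 1, Gbx2, was negative at -1.34. Without treated TIR1 replicate 1 the positive count was 5, and without treated PDS5AB replicate 1 or untreated TIR1 replicate 1 the negative count was 2. Of 12 formative epiblast genes, which mark the step after the naive state, 4 were positive and 3 negative. Pou3f1, the POU factor of that step, had a difference of 2.40 (SE 0.35, adjusted p = 8.76e-06), and the DNA methyltransferase Dnmt3a one of 1.05. Sox3 (1.45) lost its call without any 1 of 5 libraries, among them untreated TIR1 replicate 1, where the adjusted p was 0.119. Zic2 and Zic5 stood at -0.81 and -0.82, and Lef1 at -2.13 through the TIR1 line. Of 6 tested fibroblast genes, 2 were positive, and 1 of them, Col1a1 (0.77, SE 0.27, adjusted p = 0.0362), lost its call without any 1 of 7 libraries, with an adjusted p of up to 0.215 without untreated TIR1 replicate 1.

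Transcripts of the two-cell-like state, which appears in rare cells of an embryonic stem cell culture, gave 8 positive and 0 negative differences among 15 tested (median log2 difference 1.64), against 13.9% and 12.4% of all tested genes. In PDS5AB cells 14 of 15 rose (25.8% of all tested genes), and in TIR1 cells 0 were called (19.9%). Zscan4f, a telomere regulator that marks this state, read 4.55, 2.08 and 3.37 CPM in untreated and 11, 6.66 and 8.59 CPM in treated PDS5AB libraries. In TIR1 cells Zscan4f was between 0.204 and 0.674 CPM in all 6 libraries, and the log2 difference was 2.23 (SE 0.53, adjusted p = 0.00199). The deubiquitinase genes Usp17lc, Usp17la and Usp17lb had differences of 2.59, 2.38 and 1.88. Zscan4 and Usp17l genes have near-identical copies, and fragments that matched several genes were dropped, so single members are uncertain. The untreated PDS5AB libraries already held more Zscan4f than the untreated TIR1 libraries, with no overlap.

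Signalling genes were read next, beside the 13.9% of all tested genes with a positive and the 12.4% with a negative difference. For LIF and STAT3, 3 of 14 were positive and 5 negative: the receptor chains Lifr and Il6st stood at -0.78 and -0.65, Bcl3 at -0.88 and Pim1 at -0.43, while the kinase Jak1 was at 0.40 and the inhibitors Socs1 and Socs3 at 0.87 and 0.54. The positive count was 5 without untreated PDS5AB replicate 1. Of 17 ERK feedback genes, 6 were negative and 3 positive, the latter near the share of all tested genes. The negative ones included Spry4, the phosphatase Dusp6 (-1.48) and Spry2 (-1.35), and the positive ones were the immediate-early gene Fos (1.55), the phosphatase Dusp4 (1.40) and Ier3 (1.36). Of 19 Nodal and activin genes, 7 were positive and 2 negative. The feedback inhibitor Lefty1 had a difference of 2.39 (SE 0.27, adjusted p = 1.91e-07), with effects of 0.86 in PDS5AB and -1.53 in TIR1 cells. The ligand Nodal stood at 0.56 and the ligand Gdf3 at -0.46. Of 15 Wnt outputs, 2 were positive, near the share of all tested genes, and 5 negative, of which 2 had no called PDS5AB effect. Without any 1 of 9 of the 12 libraries 1 was positive. The ligand Wnt8a was at 2.13 and the inhibitor Dkk1 at 1.18, against Notum, Ccnd1, Lef1, Apcdd1 (-0.92) and Cdx1 (-0.88). Axin2, Sp5 and Rnf43, direct outputs of β-catenin, rose with auxin in both lines without a called difference. Of 18 retinoic acid genes, 7 were positive and 0 negative, but 3 of the 7 had no called PDS5AB effect. The other 4 were led by the retinol transporter Stra6 at 2.25 and included the synthesis enzymes Aldh1a2 (1.30) and Rdh10 (1.04) and the degrading enzyme Cyp26b1 (1.26).

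Most matrix and junction genes with a called difference were positive. Of 47 collagen and laminin genes, 20 were positive and 2 negative (13.9% and 12.4% of all tested genes, also for the lists that follow). Beside Col4a1 and Col4a2, the epithelial laminin chain Lamb3 (2.33) and the collagens Col15a1 (2.21) and Col6a4 (2.19) were positive, and Col9a2 (-0.95) was negative with Lama1. Of 19 epithelial and mesenchymal genes, 9 were positive and 0 negative (1 without treated PDS5AB replicate 3 or treated TIR1 replicate 3). They took in both kinds: Twist1 and Snai2 (0.85), factors of the mesenchymal state, and Cldn6 (1.21), Cldn4 (0.89), Esrp1 (0.97) and Cdh1 (0.28), genes of epithelial junctions and splicing. Of 30 Hox cluster genes, which pattern the body axis, 24 rose in PDS5AB cells and 5 in TIR1 cells (25.8% and 10.4% of all tested genes), but 7 had a called difference, all positive (1 was negative without untreated TIR1 replicate 1). Hoxb13 and Hoxd13 had differences of 1.15 and 1.12. The largest, at Hoxd1 and Hoxc6, lost their calls without untreated TIR1 replicate 1 (adjusted p 0.0636 and 0.081). Hoxb8 lost its positive call in 7 of the alternative settings, with an adjusted p of up to 0.119 without untreated TIR1 replicate 2.

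DNA replication genes fell in PDS5AB cells, and in 14 cases by more than in TIR1 cells. Of 33 DNA replication genes, 29 fell in PDS5AB cells, 13 fell in TIR1 cells and 0 rose in either. Of all tested genes, 20.2% fell and 25.8% rose in PDS5AB cells, and 9.59% fell and 10.4% rose in TIR1 cells. A negative difference was called for 12.4% and a positive one for 13.9%, and 7.57% were shared with auxin. All counts in this paragraph are read against these shares. Among the replication genes the difference was negative for 14, positive for 0, and had a median of -0.27. Pola1, a subunit of DNA polymerase alpha, stood at -0.73 (SE 0.11, adjusted p = 6.94e-06), the origin firing factor Mcm10 at -0.70, the clamp loader Rfc5 at -0.54 and the clamp Pcna at -0.49. Of 26 mitosis genes, 17 fell and 1 rose in PDS5AB cells, and 9 had a negative and 0 a positive difference, none beyond -0.55 (Cenpf, a kinetochore protein) in size, with Mad2l1, of the spindle checkpoint, at -0.42 and the kinase Aurkb at -0.40. Of 22 p53 targets, 17 rose in PDS5AB and 12 in TIR1 cells, 7 were shared with auxin, and 8 had a positive and 0 a negative difference. Without treated PDS5AB replicate 3 the positive count was 5, and 0 of the called differences reached 2-fold. The stress gene Ddit4 was at 0.98, the cell death gene Pmaip1 at 0.92, Perp at 0.81 and Btg2 at 0.80. Cdkn1a, the p53-induced cell cycle inhibitor, changed in both lines, with a difference of 0.12 (SE 0.12, adjusted p = 0.492). Of 29 genes of amino acid transport and the ATF4 response, 19 fell in each line, 9 were shared with auxin, and 7 had a negative and 3 a positive difference. Atf4 itself stood at -0.63, the serine synthesis enzyme Psat1 at -0.64, the proline synthesis enzyme Aldh18a1 at -0.72 and asparagine synthetase, Asns, at -0.37, while Atf3 and Cebpb were at 1.86 and 1.05.

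Genes shared with auxin changed the same way in both lines without a called difference. Htr5a, a serotonin receptor, rose from 11.1, 8.40 and 8.22 to 73.1, 58.2 and 68 CPM in PDS5AB cells and from 3.75, 3.21 and 3.01 to 17.4, 14.8 and 14.7 CPM in TIR1 cells. The lines differed in level at both times, but the log2 difference of the effects, 0.62 (SE 0.33, adjusted p = 0.176), was not called. Utf1, a chromatin protein of pluripotent cells, fell from 143, 76.2 and 81.3 to 24.2, 15.8 and 16.1 CPM and from 89, 82.9 and 70.5 to 17, 26.9 and 21.9 CPM (-0.55, SE 0.29, adjusted p = 0.164). Wnt3 and Gpld1 rose in both lines, with differences of 1.25 and 0.62, and Eras and the activin subunit Inhbb fell in both, with -0.69 and -0.91. These calls changed with the settings. With the 12 libraries alone the differences of Htr5a and Inhbb were called (adjusted p 0.0225 and 0.00589), and without the filter on low counts those of Htr5a (0.00598), Inhbb (2.42e-05), Utf1 (0.000127) and Eras (0.0232). Leaving out 1 library called Utf1 (treated PDS5AB replicate 1, adjusted p 0.0425), Inhbb (treated TIR1 replicate 1, 0.0471), Wnt3 (untreated PDS5AB replicate 1, treated TIR1 replicate 1 or untreated TIR1 replicate 3, lowest 0.0257) and Eras (replicate 2 of treated or untreated PDS5AB or of untreated TIR1, or replicate 1 of treated TIR1, lowest 0.02). DESeq2 called Wnt3 (0.0349). The replicate block over all lines called Htr5a (0.0375) and Inhbb (0.0456), and the block within lines Htr5a (0.000801), Inhbb (0.000182), Utf1 (0.00154), Eras (0.0112) and Wnt3 (0.048). Gpld1 was not called in any alternative. A difference that was not called does not show equal effects, and the standard errors of these differences were 0.51 for Wnt3, 0.55 for Gpld1, 0.27 for Eras and 0.39 for Inhbb.

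Of 9 tested genes of the AHR pathway, 8 rose in TIR1 cells and 3 in PDS5AB cells (10.4% and 25.8% of all tested genes), and 5 had a negative and 0 a positive difference (12.4% and 13.9%). The promoters of Cyp1a1, Cyp1b1 and Ahrr, chosen after their values and letters were seen, are shown as examples with the core letters that AHR with ARNT is known to bind. Each run is 300 bases, from 250 before to 50 after the start of the RefSeq transcript on GRCm38.p6, 5′ to 3′ on the gene's strand, with GCGTG or its reverse complement CACGC in capitals.
Cyp1a1: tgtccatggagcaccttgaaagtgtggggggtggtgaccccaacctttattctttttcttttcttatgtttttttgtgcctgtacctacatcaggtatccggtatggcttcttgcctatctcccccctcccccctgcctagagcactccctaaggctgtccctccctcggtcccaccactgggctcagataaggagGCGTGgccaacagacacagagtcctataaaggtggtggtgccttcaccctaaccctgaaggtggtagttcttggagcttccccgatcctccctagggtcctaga
Cyp1b1: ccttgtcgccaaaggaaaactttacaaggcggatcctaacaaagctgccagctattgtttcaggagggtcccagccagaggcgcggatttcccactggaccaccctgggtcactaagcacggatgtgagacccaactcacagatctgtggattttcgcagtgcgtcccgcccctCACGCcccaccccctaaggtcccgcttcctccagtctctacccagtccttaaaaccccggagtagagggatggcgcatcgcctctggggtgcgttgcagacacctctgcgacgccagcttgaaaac
Ahrr: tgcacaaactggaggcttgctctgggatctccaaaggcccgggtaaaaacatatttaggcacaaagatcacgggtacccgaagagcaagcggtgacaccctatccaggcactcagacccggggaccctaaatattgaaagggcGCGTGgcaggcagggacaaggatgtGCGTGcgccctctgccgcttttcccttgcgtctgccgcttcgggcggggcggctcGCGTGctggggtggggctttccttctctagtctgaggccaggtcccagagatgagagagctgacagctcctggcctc
Cyp1a1 lies at chr9:57697363-57697662 on the plus strand, Cyp1b1 at chr17:79715012-79715311 and Ahrr at chr13:74292282-74292581, both on the minus strand. The letters occur once in Cyp1a1, starting at -54 from the start of transcription, once in Cyp1b1, starting at -76, and 3 times in Ahrr. GCGTG on either strand was found in 5 of the 7 tested AHR genes that have such a window, with no match in Cyp1a2 and Nqo1, and in 10639 of all 32851 windows (32.39%), so it is common. The longer TNGCGTG, which contains GCGTG, was in 1 of the 7 (Ahrr) and in 5.065% of all windows. A match is a description of the letters and not a binding site.

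Cyp1a1, a monooxygenase and the classic AHR target, stood at 0.472, 0.694 and 0.414 CPM in untreated and 7.57, 6.04 and 6.99 CPM in treated PDS5AB libraries. In TIR1 cells it went from 0.478, 0.440 and 0.390 CPM to 74.9, 59.7 and 65.1 CPM. Untreated levels of the lines overlapped, and the treated TIR1 libraries lay above every treated PDS5AB library. The log2 effects were 3.71 in PDS5AB and 7.24 in TIR1 cells, and the difference was -3.54 (SE 0.38, adjusted p = 5.67e-08). The related Cyp1b1 reached 2.87, 2.58 and 2.78 CPM in treated PDS5AB and 9.58, 10.3 and 12.4 CPM in treated TIR1 libraries. Untreated TIR1 libraries held at most 3 counts of it, and no fold is given. Ahrr, the repressor of AHR and itself a target, was at 0.270, 0.793 and 0.359 CPM before and 0.709, 0.621 and 0.555 CPM after auxin in PDS5AB cells, where the groups overlapped. In TIR1 cells Ahrr went from 0.110, 0.0881 and 0.284 to 6.63, 6.02 and 7.80 CPM, which gave a difference of -4.92 (SE 0.57, adjusted p = 2.53e-07), or -5.62 without untreated TIR1 replicate 3. Cyp1a2, a neighbour of Cyp1a1 without the letters in its window, read 0.270, 0.0992 and 0.221 and then 0.112, 0.131 and 0.359 CPM in PDS5AB cells and 0.0367, 0.352 and 0.0355 and then 1.22, 1.11 and 1.59 CPM in TIR1 cells (-3.24, SE 0.93, adjusted p = 0.00989). The difference of Cyp1a2 was -4.98 without untreated TIR1 replicate 2 and -3.98 without treated PDS5AB replicate 3. Tiparp, an ADP-ribosyltransferase that dampens AHR, fell from 50.9, 46.2 and 56.3 to 29.1, 31.8 and 35.1 CPM in PDS5AB cells and rose from 36.3, 35.8 and 38.9 to 61.6, 60.3 and 56.5 CPM in TIR1 cells (-1.36, SE 0.23, adjusted p = 4.79e-05). Ahr and Arnt themselves changed in TIR1 cells by 0.43 and 0.30 and had no called difference, and Nqo1 rose in both lines (0.44 and 0.63).

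**Figure D4:**
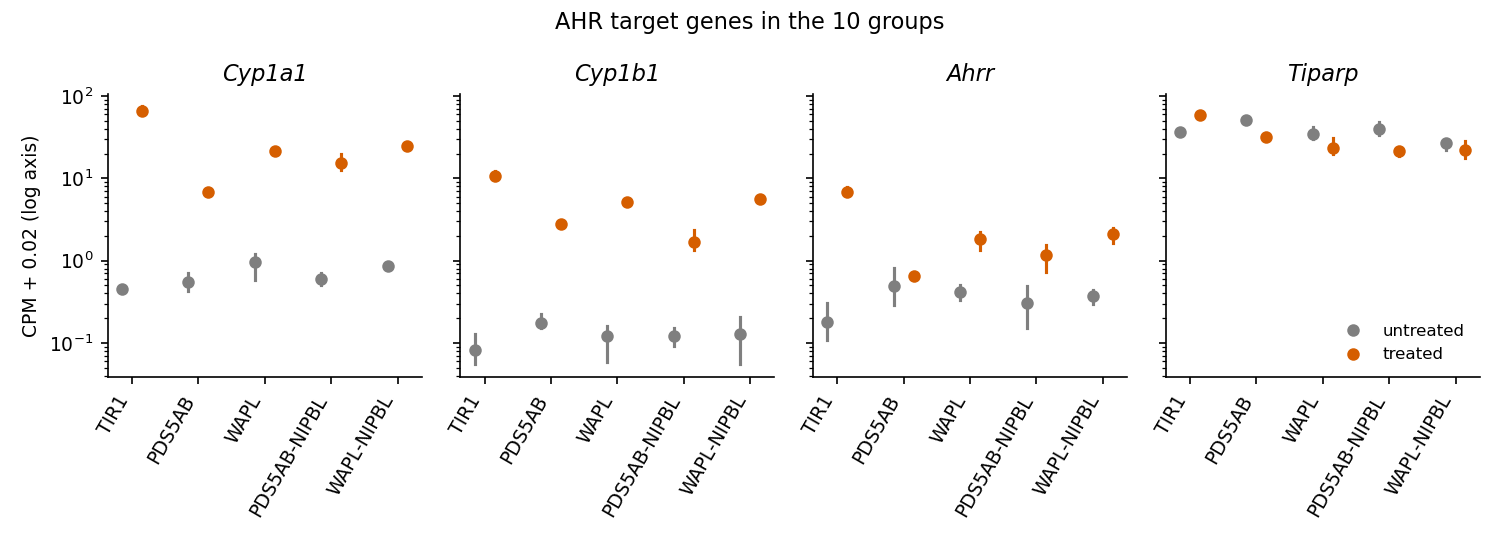
Mean CPM with a constant added (log axis) of 4 AHR target genes in the 5 lines, untreated (grey) and treated (orange), with bars from the lowest to the highest of 3 libraries. Cyp1a1 lies between 59.7 and 74.9 CPM in treated TIR1 libraries and between 6.04 and 7.57 CPM in treated PDS5AB libraries.

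The same genes can be read in libraries of the other lines, which received the same dose of auxin. Treated Cyp1a1 stood at 21.7 ± 0.841 CPM in the WAPL line, 15.2 ± 3.79 CPM in the PDS5AB-NIPBL line and 25.1 ± 1.51 CPM in the WAPL-NIPBL line, all means ± SD with n = 3. All lie between the PDS5AB and the TIR1 line. Treated Ahrr was at 1.82 ± 0.451, 1.14 ± 0.416 and 2.11 ± 0.454 CPM in that order. These libraries carry the numbers 25 to 42, between those of the PDS5AB and the treated TIR1 libraries.

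Of the 929 genes with a called difference and no called PDS5AB effect, 69 (7.43%) had no overlap between libraries numbered 1 to 21 and those numbered 25 to 45, against 180 of all genes tested (0.906%) and 25 of the genes beyond auxin (0.590%). Among the genes beyond auxin the share was 4.14% where TIR1 cells moved the opposite way. In the separate class of 55 genes whose PDS5AB change was the smaller one it was 9.09% (5 genes). The treated TIR1 libraries carry the highest numbers, so choosing genes in which they depart from the others favours this split, and the shares are a description. Cdx2, a trophoblast and hindgut factor, is such a gene: it stood at 2.19, 1.85 and 1.49 CPM and 1.57, 1.31 and 1.37 CPM in PDS5AB cells, 1.40, 1.72 and 1.24 CPM in untreated and 10.3, 8.73 and 10.7 CPM in treated TIR1 cells (-3.15, SE 0.35, adjusted p = 8.09e-08). The untreated groups of the WAPL, PDS5AB-NIPBL and WAPL-NIPBL lines held 3.70 ± 0.955, 6.38 ± 1.61 and 6.45 ± 1.51 CPM without any auxin. Rpl22-ps1, a ribosomal pseudogene, also had no such overlap, with a difference of 1.97. Lef1, a factor that partners β-catenin, overlapped between the PDS5AB groups (11.6, 9.26 and 9.22 and 13.3, 8.53 and 7.48 CPM) and rose in TIR1 cells from 1.69, 1.45 and 1.28 to 5.78, 6.08 and 7.03 CPM (-2.13, SE 0.30, adjusted p = 5.03e-06). Prph, a neuronal intermediate filament, had a difference of 2.19. The mitochondrial transfer RNA gene mt-Tl2 had one of 2.65 that lost its call without treated TIR1 replicate 1 (adjusted p 0.0509) or untreated TIR1 replicate 3 (1.78, adjusted p 0.127). Of 28 mitochondrially encoded genes tested, 4 had a positive and 1 a negative difference, near or below the 13.9% and 12.4% of all tested genes. All 5 were transfer RNAs (0 were negative without any 1 of 7 of the 12 libraries), and the PDS5AB effect was called for none of them.

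The genes beyond auxin were read in the 18 libraries that did not enter the difference. Treatment of the WAPL line, which removes the release factor, changed 6517 genes (32.8%), that of the PDS5AB-NIPBL line 3874 (19.5%) and that of the WAPL-NIPBL line 1702 (8.57%). Of the 4240 genes beyond auxin, 2539 (59.9%) were called in the direction of the PDS5AB effect in the WAPL line and 96 (2.26%) in the opposite one. In the PDS5AB-NIPBL line 1815 (42.8%) went the same way and 38 (0.896%) the opposite way, and in the WAPL-NIPBL line 781 (18.4%) and 36 (0.849%). Over all tested genes the same-way shares were 28.8%, 18.1% and 7.67%, and 5.27% went the same way in all 3 lines, against 635 genes (15.0%) of those beyond auxin. The opposite-way shares over all tested genes were 3.99%, 1.36% and 0.901%, the last near that of the genes beyond auxin. All of these lines also received auxin. For the 3451 genes with no called change in TIR1 cells, the same-way shares were 57.7%, 40.1% and 15.5%. For the 378 called the same way in TIR1 cells they were 85.5%, 83.3% and 46.3%. For the 1504 genes shared with auxin the shares were 46.3%, 40.2% and 19.3%, and for the 3335 called in PDS5AB cells without a called difference 33.9%, 17.8% and 5.97%. The part of effect size and expression level in these shares was not tested.

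**Figure D5:**
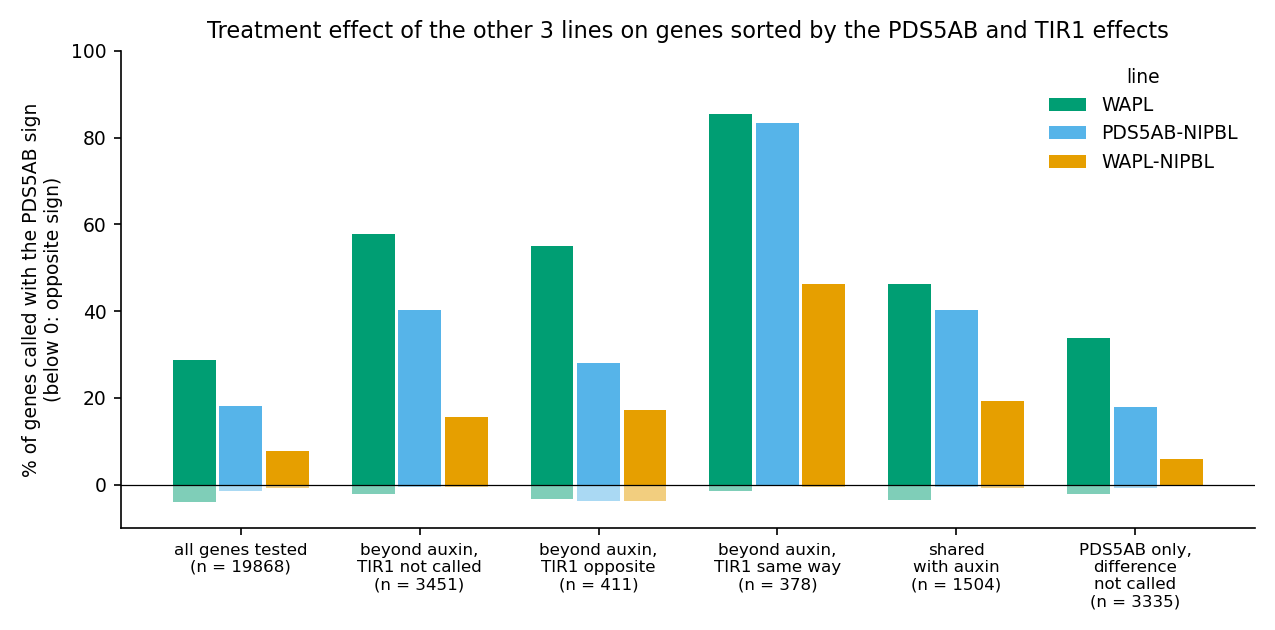
Percent of genes in each class (x axis, with the number of genes) that were called with the sign of the PDS5AB effect in each of the other 3 lines, drawn above 0, and with the opposite sign, drawn pale below 0. Genes beyond auxin without a TIR1 call stand at 57.7%, 40.1% and 15.5%, and all tested genes at 28.8%, 18.1% and 7.67%.

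Of the 14 naive genes, 11 fell in the WAPL line (15.8% of all tested genes fell), 11 in the PDS5AB-NIPBL line (8.06%) and 10 in the WAPL-NIPBL line (3.45%), and 0 rose in any of them (17%, 11.4% and 5.11% of all tested genes rose). Of the 12 core genes, 8, 8 and 5 fell in the same order, and 0 rose. Prdm14 went from 52.7 ± 1.88 to 21.9 ± 0.427 CPM in the WAPL line, from 45.4 ± 3.08 to 22.5 ± 1.39 CPM in the PDS5AB-NIPBL line and from 54.6 ± 1.53 to 34.1 ± 2.35 CPM in the WAPL-NIPBL line. Sox2 went from 448 ± 16.9 to 220.5 ± 17.3, from 438 ± 28.5 to 314 ± 15.2 and from 523 ± 31.6 to 406 ± 39.9 CPM in the same order. Of 15 two-cell-like genes, 13 rose in the WAPL line and 0 were called in either line with FKBP-NIPBL. Their median log2 change was 1.36 in the PDS5AB, 2.18 in the WAPL, 0.998 in the PDS5AB-NIPBL and 0.43 in the WAPL-NIPBL line. A missing call does not show that levels stayed the same. Whether the lines differed from each other was not tested. Scn3a, lower after auxin in PDS5AB cells, also fell in the WAPL line, from 6.65 ± 0.697 to 0.384 ± 0.0607 CPM. Mobp fell in the WAPL line, from 20.4 ± 1.37 to 7.23 ± 1.44 CPM, and in the PDS5AB-NIPBL line went from 18.5 ± 3.54 to 34.8 ± 5.90 CPM.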

How the data were processed

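Polyadenylated RNA was sequenced in 30 libraries, and 12 enter the comparison. The authors deposited raw counts of fragments per gene, made per the file headers with featureCounts 2.0.1 in paired-end mode on GENCODE M23 genes of GRCm38. That command sets no strand option although the labels' protocols name a stranded kit, and fragments matching several genes or places were dropped. STAR 2.7.7a and cutadapt are named per the submitters' processing notes. Of 55421 identifiers, 55154 matched a symbol.

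Counts were tested with R 4.3.3 and its package edgeR 4.0.16. The model took 30 libraries, 10 group means with 20 residual degrees of freedom, TMM scaling (factors 0.954 to 1.13 in the 12), filterByExpr with a minimum count of 10, which kept 19868 genes, the quasi-likelihood F-test and Benjamini-Hochberg adjustment over all of them. Standard errors are the log2 change divided by the root of F. Steps were tested on simulated data. Alternatives were DESeq2 1.42.0, size factors by RLE, no filter, the 12 libraries alone, a 2-fold minimum, replicate blocks and leaving out each library. Named genes had a mean of at least 50 counts and were the 8 largest differences per direction beyond auxin with no TIR1 call and no overlap between the PDS5AB groups, the 3 largest of each other class, the cohesin genes and, from each list, the 3 called members with the largest differences; further members were named with their list, and some genes that met the rule are not reported here. Members, lists and the naming rule were chosen with earlier results of these data known. Promoters and motif counts used RefSeq sequences on GRCm38.p6. No 2 libraries held identical counts.

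Same-numbered treated and untreated PDS5AB libraries deviated together from their group means (r 0.382 to 0.679), and untreated TIR1 libraries deviated with the same-numbered PDS5AB libraries (r 0.190 to 0.451). Treated TIR1 libraries did not follow the numbers of PDS5AB libraries (r -0.114 to 0.0978), so the numbers pair 3 of the 4 groups and the fit without a block was kept.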

Additional observations from a re-analysis of the deposited data

Results flagged for a closer look

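For 19 named genes auxin was called in opposite directions in the PDS5AB and TIR1 lines, and the difference itself was called by edgeR's test. They belong to the 411 such genes among 19868. Each value is the log2 difference, PDS5AB effect minus TIR1 effect, and the treated TIR1 libraries carry numbers apart from the other 9.

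PDS5AB cells were higher and TIR1 cells lower after auxin at 12 of them. The values were 3.64 for Ccnd2, 3.25 for the histone gene Hist1h4a, 3.0 for Dlk1, 2.98 for Atp1a4, 2.53 for Col4a1, 2.49 for Apob, 2.40 for Pou3f1, 2.39 for Lefty1, 1.55 for Neurod1, 1.44 for the enolase gene Eno3 and 1.22 for Mael, a germline gene. Foxc1, a mesoderm factor, had a fitted value of 3.35, which depends on the prior count because its treated TIR1 libraries held at most 3 counts. PDS5AB cells were lower and TIR1 cells higher at Mobp (-3.75), Bc1 (-2.94), Scn3a (-2.80), Klf4 (-1.43), Gbx2 (-1.34), Bcl3 (-0.88) and Esco2 (-0.62). Libraries numbered 1 to 21 and 25 to 45 did not overlap at Bc1 and Apob.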

How the results depend on the processing

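RLE size factors and DESeq2 moved no count of differences, effects or classes by more than 1.5 times. Small counts within lists did move with DESeq2. It called 1 negative germline gene (2 as reported), 0 positive protocadherins (1 as reported) and 1 negative epithelial and mesenchymal gene (0 as reported). Among genes named by the rule only Esco1, whose difference was not called, changed sign (-0.12 to 0.03). For single genes 2320 results kept their side of the threshold, 39 passed it newly and 73 no longer passed it, 27 of the counts moved and 236 did not. The share of called differences that were positive was 52.9% as reported, 82.9% with a minimum of 2-fold, and 45.9% to 53.3% over the other alternatives, the lowest without untreated TIR1 replicate 1.

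With a minimum of 2-fold, 1723 differences remained called (1428 positive, 295 negative), 2574 PDS5AB and 733 TIR1 effects, 1098 genes beyond auxin (954 higher, 144 lower), 151 shared with auxin and 3 smaller than in the control. Of the genes beyond auxin, 463, 307 and 102 then went the same way in the WAPL, PDS5AB-NIPBL and WAPL-NIPBL lines. The 55 genes smaller than in the control became 83 without the filter, 93 with the 12 libraries alone and 84 with the replicate block.

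With a replicate block over all lines the fit called 6155 differences (3162 positive, 2993 negative) and 4966 genes beyond auxin. A replicate block within each line, added after seeing the data, called 7983 differences (4009 negative), 7065 TIR1 effects, 3092 genes beyond auxin and lower, 2286 shared with auxin, 1411 through the control and 237 smaller than in the control, with 4166, 3357 and 2120 genes going the same way in the WAPL, PDS5AB-NIPBL and WAPL-NIPBL lines. Either block called the differences of Htr5a and Inhbb, and the block within lines those of Utf1, Eras and Wnt3. The block within lines also called more members of some lists, such as 14 p53 targets (positive), 22 DNA replication and 14 mitosis genes (negative). Over all 19868 tested genes that block called 3974 positive and 4009 negative differences. With the minimum of 2-fold, 5 naive and 2 core pluripotency genes were called, all negative, and 0 of the cohesin, DNA replication, mitosis and p53 lists. Of all tested genes, 7.19% were then positive and 1.48% negative. TIR1 numbers were not shown to pair its libraries (r 0.0122 to 0.218).

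Leaving out each library in turn gave 4349 to 5337 differences (1996 to 2792 positive, 2086 to 2602 negative), 8084 to 9309 PDS5AB effects, 2689 to 4136 TIR1 effects, 3581 to 4320 genes beyond auxin (1737 to 2336 higher, 1607 to 1984 lower), 1009 to 1497 shared, 701 to 969 through the control and 36 to 51 smaller than in the control, the 36 without untreated PDS5AB replicate 2. Same-way counts ran from 2187 to 2552, 1566 to 1870 and 688 to 792. The fit on 12 libraries gives no value for the other lines. The cause was not tested.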

Other observations

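Some gene groups belong to none of the themes above. Of 36 imprinted genes tested, 8 had a positive and 3 a negative difference, against 13.9% and 12.4% of all tested genes. Cdkn1c, a cell cycle inhibitor expressed from the maternal allele, stood at 1.55, the zinc finger gene Zim1 at 1.62 and Peg12 at -1.22, and Grb10, a growth inhibitor, at -0.36. Magel2 (1.98) lost its call without each of 8 of the 12 libraries, most without untreated TIR1 replicate 1 (1.05, adjusted p 0.418). Of 32 clustered protocadherins, cell surface proteins whose promoter choice in neurons depends on CTCF and cohesin, 1 had a positive and 2 a negative difference, below those shares. The positive one, Pcdhac2, lost its call without any 1 of 6 libraries (adjusted p up to 0.214, without untreated TIR1 replicate 3, where its difference was 2.77; it was 4.19 without treated TIR1 replicate 3), with DESeq2 and without the filter, and Pcdhgb8 lost its negative one without untreated PDS5AB replicate 1 (0.072). The positive count was 2 without untreated PDS5AB replicate 1. Of 19 germline genes held off by DNA methylation, 5 were positive and 2 negative (3 positive without untreated TIR1 replicate 2, and 0 or 1 negative without any 1 of 10 of the 12 libraries), with Tex101 at 1.13 and Ddx4, a marker of germ cells, at 0.73. Of 19 glycolysis genes 2 were positive and 2 negative, near or below the shares of all tested genes. Hk1 stood at 0.42 and Hk2 at -0.39, and Hk1 lost its call without untreated TIR1 replicate 1 (adjusted p 0.0514).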
